A study of Mus musculus with 12 samples.

Results

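Olfactory sensory neurons are replaced throughout life from basal cells, and the genes described here mark the cells on that path. The 9 genes are the helix-loop-helix factors Neurog1, Neurod1, Nhlh1, Nhlh2 and Hes6, the zinc finger factors Insm1 and St18, the growth arrest gene Gadd45g and the RNA-binding protein gene Elavl4. They were found by their symbol in the platform annotation, as 9 of 18193 genes named on the array, and were put together because several of them were low in mice given clodronate liposomes. They were thus chosen by their signals in the comparison of clodronate with control liposomes, which is given as a description, with no p-value. The comparison of bulbectomy with sham operation, averaged over both liposome groups, is a contrast orthogonal to those that chose the genes and was tested, although the genes were proposed with earlier results of these data known.

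Gene expression was measured on 12 one-colour Affymetrix arrays of microdissected olfactory epithelium from wild-type male C57BL/6J mice aged 6 weeks. Lip-C mice received liposomes holding clodronate, which kills phagocytes that take it up, as 3 intranasal doses of 50 µl and 2 intravenous doses of 200 µl. Lip-O mice received empty liposomes by the same routes and in the same volumes, so no group was without liposomes. Each liposome group was divided between bilateral removal of the olfactory bulbs (OBX), which cuts the axons of olfactory neurons, and a bilateral sham operation. Tissue was taken at 48 h. The 4 groups, Lip-O sham, Lip-O OBX, Lip-C sham and Lip-C OBX, had 3 arrays each. The titles call these biological replicates, but no source used here says whether an array held RNA of 1 mouse or of several. P-values therefore measure the spread between these arrays, which may differ from that between single mice.

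Proneural factors are basic helix-loop-helix proteins that pair with broadly expressed E proteins, bind short DNA motifs called E-boxes and switch on neuronal genes. In the olfactory epithelium, Neurog1 marks globose basal cells committed to the neuronal fate and Neurod1 acts just after it. Id proteins and Hes repressors oppose these factors, while Hes6 counters the repressor Hes1. Insm1 promotes the progenitors that give rise to neurons, and Elavl4 stabilises neuronal messenger RNAs as cells differentiate.

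The tissue markers were those of olfactory epithelium. Signals of Omp, the marker of mature olfactory neurons, lay between 6768.5 and 18212.6 over the 12 arrays, and group means of the sustentacular cell enzyme Cyp2g1 lay between 14469 and 16579. Of 12 markers of olfactory bulb and brain, 7 were under the array 40th percentile in every group, among them the interneuron gene Gad1 and the myelin gene Mog. The other 5 were not, and 3 of them changed after OBX, as given below. The median signal of an array was 117.5 to 134.2, and the 40th percentile, used here as the bound of dim signals, averaged 71.7. All 9 genes had a probe set above that bound on at least 3 arrays, and 15 of their 16 probe sets passed. Because the arrays measure bulk tissue, fewer cells of a type and less RNA per cell cannot be told apart.

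RefSeq promoter sequences (assembly GRCm38.p6) matched 7 of the 9 genes. The 250 bases that precede the start are shown for Neurog1, Nhlh1, Hes6 and Gadd45g, the genes that passed the test of OBX described below, and for Neurod1, which had the largest log2 difference between Lip-C and Lip-O mice among the members above the bound. They are written 5′ to 3′ on the strand of the gene, and capitals mark each E-box (CANNTG, a motif that reads as the same pattern on both strands).
Neurog1, chr13:56252181-56252430, minus strand: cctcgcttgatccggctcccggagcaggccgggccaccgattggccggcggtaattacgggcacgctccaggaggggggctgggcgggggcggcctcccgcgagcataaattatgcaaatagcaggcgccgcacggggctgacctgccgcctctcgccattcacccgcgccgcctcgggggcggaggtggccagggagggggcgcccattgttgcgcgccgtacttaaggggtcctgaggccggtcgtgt
Neurod1, chr2:79456637-79456886, minus strand: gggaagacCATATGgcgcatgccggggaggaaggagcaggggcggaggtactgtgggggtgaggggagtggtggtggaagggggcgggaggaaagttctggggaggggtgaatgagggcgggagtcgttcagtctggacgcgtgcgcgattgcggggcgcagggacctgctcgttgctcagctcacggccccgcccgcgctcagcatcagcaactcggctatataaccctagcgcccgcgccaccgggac
Nhlh1, chr1:172057597-172057846, minus strand: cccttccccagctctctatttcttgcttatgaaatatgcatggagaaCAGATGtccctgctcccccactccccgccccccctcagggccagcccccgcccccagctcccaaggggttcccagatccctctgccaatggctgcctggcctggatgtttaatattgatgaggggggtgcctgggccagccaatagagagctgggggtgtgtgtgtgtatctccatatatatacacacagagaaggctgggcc
Hes6, chr1:91414039-91414288, minus strand: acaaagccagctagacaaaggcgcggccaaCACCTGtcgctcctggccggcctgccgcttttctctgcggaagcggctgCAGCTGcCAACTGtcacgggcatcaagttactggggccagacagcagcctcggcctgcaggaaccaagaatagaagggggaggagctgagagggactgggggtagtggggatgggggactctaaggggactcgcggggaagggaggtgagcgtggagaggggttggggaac
Gadd45g, chr13:51846425-51846674, plus strand: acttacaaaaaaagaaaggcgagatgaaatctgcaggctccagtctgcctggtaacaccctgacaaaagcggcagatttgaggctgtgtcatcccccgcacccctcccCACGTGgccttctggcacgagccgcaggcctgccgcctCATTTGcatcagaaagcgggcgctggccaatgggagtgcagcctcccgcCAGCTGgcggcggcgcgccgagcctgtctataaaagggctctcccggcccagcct
The window of Neurog1 held no E-box. That of Neurod1 held 1, a CATATG beginning 242 bases before the start, and that of Nhlh1 held 1 as well, a CAGATG at 203 bases. The window shown for Hes6, that of its second start, and that of Gadd45g held 3 each, and in both 1 of the 3 was CAGCTG, at 171 and 55 bases before the start. The window of the first Hes6 start, which is not shown, held 1 E-box, a CAGCTG at 150 bases. An E-box is a common motif: 66.2% of 32807 promoter windows of the same length held one, CAGCTG stood in 13.0% and CAGATG, counted on both strands, in 14.5%. Over all 11 windows of the 7 genes, 9 held an E-box, 5 held CAGCTG and 5 held CAGATG, with 2 of the Elavl4 windows overlapping each other. A match is a run of letters and not a measured binding site.

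**Figure D1:**
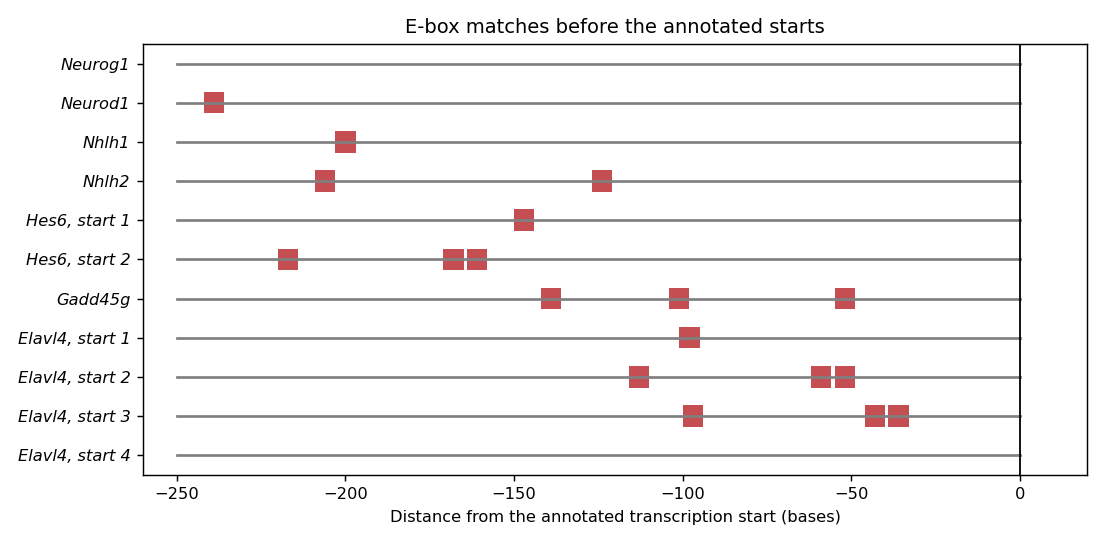
E-boxes in the 250 bases before the start, 1 row per promoter record, with the distance from the start in bases on the horizontal axis and a box for each E-box of any inner bases. The row of Gadd45g has 3 boxes and that of Neurog1 is empty, as is that of the fourth start of Elavl4.

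OBX was compared with sham as the mean of its effects in mice of the 2 liposome groups. Neurog1, Nhlh1, Hes6 and Gadd45g rose, none fell, and the other 5 did not pass an adjusted p of 0.05 (limma, Benjamini-Hochberg over 13628 genes). Changes were common in this comparison: 19.2% of all genes were called higher and 13.5% lower. The median log2 change of the 9 genes was 0.32, with St18 at its fitted value, against 0.05 over all genes. All log2 changes are on the scale of log2(signal + 16), which understates the change of dim genes, and carry the standard error of the model.

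Neurog1, the factor that commits precursors to the neuronal fate, had signals of 289, 242 and 223 in Lip-O sham and 437, 349 and 316 in Lip-O OBX arrays. In Lip-C mice they were 94.8, 102 and 73 after sham and 124, 134 and 112 after OBX. Within each liposome group the OBX arrays all lay above the sham arrays. The averaged log2 change was 0.46 ± 0.10 (adjusted p = 0.00758). With the mean of both Neurog1 probe sets, the second of which was above the 40th percentile on 4 arrays only, it was 0.22 (adjusted p = 0.196).

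Neurod1, which follows Neurog1 in the lineage, had signals of 838, 889 and 925 in Lip-O sham and 1130, 1276 and 1175 in Lip-O OBX arrays. In Lip-C mice they were 395, 239 and 218 after sham and 274, 342 and 254 after OBX. The OBX arrays stood above the sham arrays in Lip-O mice and were mixed with them in Lip-C mice. The averaged change was 0.24 ± 0.13 (adjusted p = 0.178). It was 0.37 (adjusted p = 0.00976) with replicate 1 of Lip-C sham, the highest of its group, left out.

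Nhlh1, a helix-loop-helix factor of newly born neurons, had signals of 995, 1352 and 1054 in Lip-O sham and 1736, 1914 and 1163 in Lip-O OBX arrays. In Lip-C mice they were 909, 1210 and 825 after sham and 1213, 1692 and 1615 after OBX. Lip-O OBX replicate 3 fell among the sham arrays, whereas in Lip-C mice the groups did not overlap. The averaged change was 0.55 ± 0.15 (adjusted p = 0.0202). Its relative Nhlh2 had group means of 992 ± 151 (SD, n = 3) in Lip-O sham, 1250 ± 90.9 in Lip-O OBX, 753 ± 57.9 in Lip-C sham and 760 ± 103 in Lip-C OBX mice, with an averaged change of 0.17 ± 0.09 (adjusted p = 0.168).

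Hes6, which counters Hes1, had signals of 958, 1175 and 1211 in Lip-O sham and 1503, 1551 and 1227 in Lip-O OBX arrays. In Lip-C mice they were 632, 683 and 698 after sham and 756, 916 and 814 after OBX. All OBX arrays exceeded the sham arrays of their liposome group, in Lip-O mice by a narrow margin. The averaged change was 0.32 ± 0.09 (adjusted p = 0.0156), and the second probe set of Hes6 changed by 0.31 when averaged in the same way.

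Gadd45g, a growth arrest gene induced in committed precursors, had signals of 391, 384 and 318 in Lip-O sham and 627, 518 and 505 in Lip-O OBX arrays. In Lip-C mice they were 283, 275 and 284 after sham and 364, 289 and 279 after OBX. The rise was clear of the sham arrays in Lip-O mice, while in Lip-C mice 1 OBX array was high and the other two lay close to sham. The averaged change was 0.35 ± 0.09 (adjusted p = 0.0116).

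St18, a zinc finger factor of the Myt family, was dim, with signals of 109, 111 and 84.8 in Lip-O sham and 183, 188 and 194 in Lip-O OBX arrays. In Lip-C mice they were 54.8, 40.7 and 30.4 after sham and 26.1, 32.0 and 46.4 after OBX. It was above the array 40th percentile on the 6 Lip-O arrays and on none of the Lip-C arrays, so no averaged log2 change is given (adjusted p = 0.0755). Its second probe set was below that bound on every array. Insm1, the zinc finger factor of neuron-producing progenitors, had group means of 2057 ± 347 in Lip-O sham, 2779 ± 470 in Lip-O OBX, 1669 ± 397 in Lip-C sham and 2131 ± 480 in Lip-C OBX mice. With this probe set, the brighter one of Insm1, the groups overlapped throughout, and the averaged change was 0.39 ± 0.15 (adjusted p = 0.0654). With the second, every Lip-O OBX array exceeded every Lip-O sham array, while the Lip-C groups overlapped. Insm1 gained the averaged call in 4 of 19 alternative settings. Without Lip-O OBX replicate 3 the change was 0.46 (adjusted p = 0.0449), and with the mean of both probe sets 0.41 (adjusted p = 0.0336).

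Elavl4, the neuronal RNA-binding protein gene, was the 1 gene of the 9 with a negative value. Its group means were 1672 ± 130 in Lip-O sham, 1540 ± 231 in Lip-O OBX, 1140 ± 50.3 in Lip-C sham and 1038 ± 64.7 in Lip-C OBX mice. With this probe set, the brightest of Elavl4, the averaged change was -0.13 ± 0.08 (adjusted p = 0.219), and OBX and sham arrays overlapped in both liposome groups. The second probe set changed by 0.14 in Lip-O and by -0.27 in Lip-C mice, where its OBX arrays all lay below the sham arrays. The third changed by -0.03 in Lip-O and by -0.06 in Lip-C mice, with overlap in both.

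**Figure D2:**
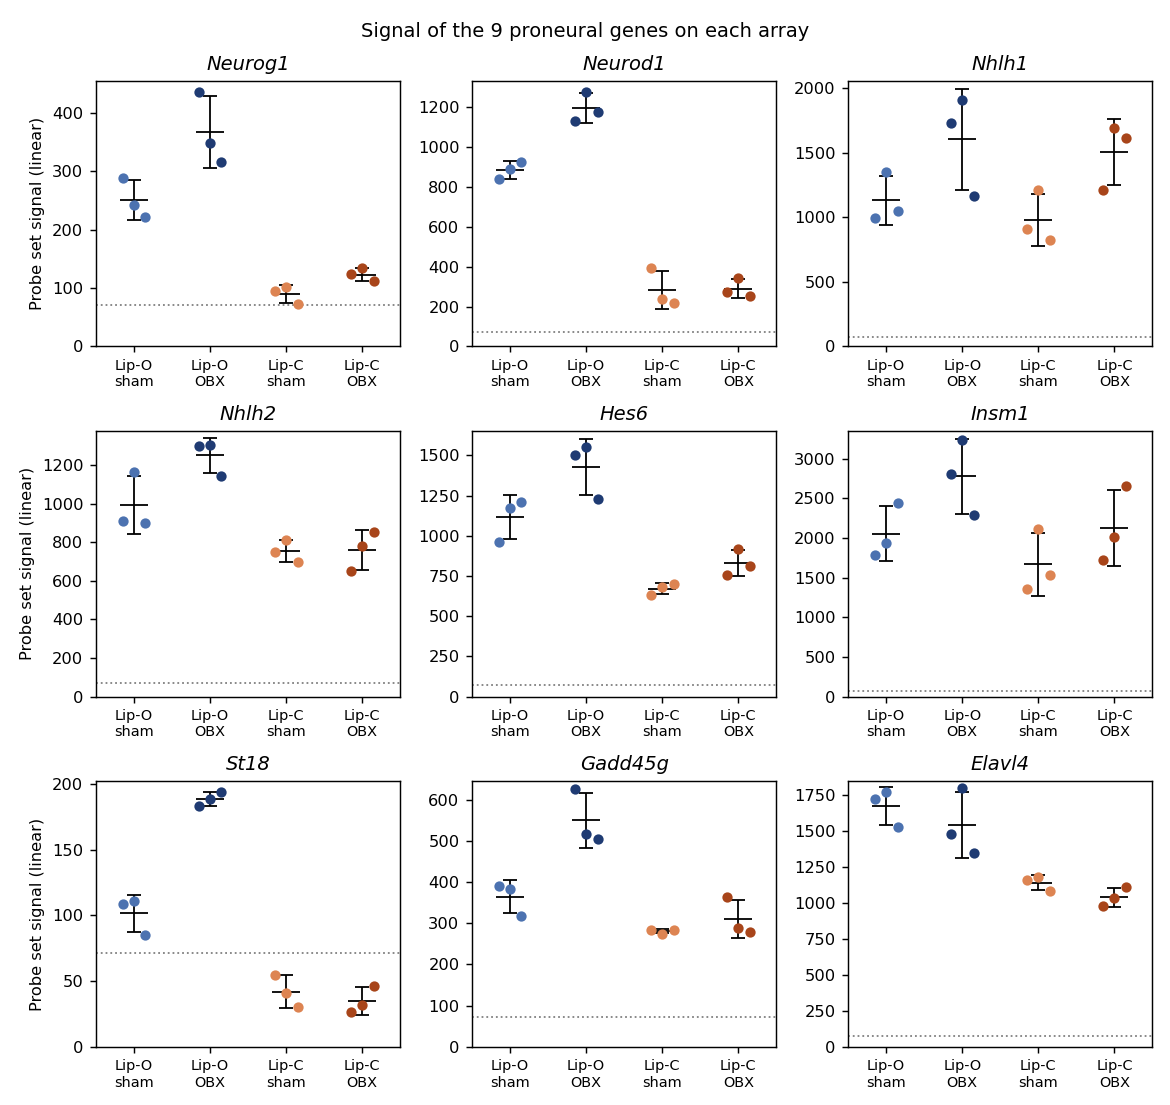
Signals of the 9 genes on each of the 12 arrays, 1 panel per gene, with the 4 groups on the horizontal axis, the deposited signal on a linear axis from 0, points for arrays and bars for the group mean ± SD; the dotted line is the mean 40th percentile of the arrays, 71.7. Neurog1, Neurod1 and St18 are separated by liposome, whereas for Nhlh1 and Insm1 the Lip-C and Lip-O arrays overlap.

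The averaged calls of Neurog1, Nhlh1, Hes6 and Gadd45g were kept when each of the 12 arrays was left out in turn, and the count of members called ranged from 4 to 6. Markers of other cell types moved in the same comparison. Of 8 globose basal cell genes tested 5 rose, among them the proliferation gene Mki67 (0.74 ± 0.23, adjusted p = 0.0294), and of 12 mature neuron genes 11 fell, with Omp at -0.67 ± 0.12 (adjusted p = 0.00237). Of 12 immature neuron genes 3 rose and 4 fell. Of 6 horizontal basal cell genes 4 rose, with a median of 0.54 over the 6, and of 10 macrophage genes 8 rose. Of the bulb and brain markers Eomes, a factor of bulb projection neurons, fell from 548 ± 109 to 227 ± 76.2 in Lip-O and from 697 ± 107 to 310 ± 41.7 in Lip-C mice (-1.19 ± 0.16, adjusted p = 0.000641). Camk2a fell (-0.44 ± 0.13, adjusted p = 0.0277), and the astrocyte gene Gfap, with group means between 56.6 and 110, rose (adjusted p = 0.00533). The summed globose signal was 11821 to 14424 in Lip-O sham, 13332 to 17453 in Lip-O OBX, 9802.1 to 10150 in Lip-C sham and 12725 to 14225 in Lip-C OBX arrays. The part of these markers in the rise of the proneural genes was not tested.

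Within each liposome group, the OBX comparison shares arrays with the Lip-C comparisons that chose the genes, so its values are given beside the averaged ones and support nothing further. In Lip-O mice Gadd45g (0.57 ± 0.12, adjusted p = 0.0104), St18 (0.81 ± 0.17, adjusted p = 0.0107) and Neurog1 (0.52 ± 0.15, adjusted p = 0.032) rose. That is 3 of 9 genes, where 10.7% of all genes were called higher. For 5 of the 9 every OBX array exceeded every sham array, which 21.6% of all genes also showed. Gadd45g and St18 passed whichever array was left out. Neurog1 lost its call when replicate 2 (adjusted p = 0.0842) or 3 (0.108) of Lip-O sham was left out, or replicate 1 (0.115) or 2 (0.0599) of Lip-O OBX, and in 4 other settings. Without Lip-O OBX replicate 3, which had the highest Omp signal of its group (11517, against 6768.5 and 7543.1), 5 genes were called, with Hes6 (adjusted p = 0.0274) and Nhlh1 (adjusted p = 0.0402) added.

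In Lip-C mice 0 of the 9 genes passed with limma, 3 had an unadjusted p under 0.05 (35.3% of all genes did, in either direction), and 10.3% of all genes were called higher. The largest value was that of Nhlh1 (0.61 ± 0.22, adjusted p = 0.0692), followed by Neurog1 (0.40 ± 0.15, adjusted p = 0.0784) and Insm1 (0.35 ± 0.21, adjusted p = 0.257). Hes6 had 0.29 ± 0.12 (adjusted p = 0.108) and Gadd45g 0.13 ± 0.12 (adjusted p = 0.479). Neurod1 (0.06 ± 0.19) and Nhlh2 (0.01 ± 0.13) were near 0. In Nhlh1, Neurog1 and Hes6, 3 of 9 genes against 23.0% of all genes, the OBX arrays all exceeded the sham arrays. Nhlh1 passed without Lip-O OBX replicate 3 (adjusted p = 0.0405). With the replicate number added to the model as a block, Neurog1 (adjusted p = 0.0245) and Nhlh1 (adjusted p = 0.0264) passed. Deviations of same-numbered Lip-C sham and Lip-C OBX arrays from their group means correlated at 0.16, 0.04 and 0.08. The block was not part of the main model.

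Whether the effect of OBX differed between Lip-C and Lip-O mice was tested as an interaction, and none of the 9 genes passed. Across all genes 0.00% passed with limma, or 154 genes when replicate 2 of Lip-O OBX was left out, while 17.6% of genes and 2 of the 9 had an unadjusted p under 0.05. The 2 were St18 (adjusted p = 0.107) and Gadd45g, with a difference of -0.44 ± 0.17 (95% confidence interval -0.83 to -0.06, adjusted p = 0.222). St18, whose signals are given above, was over the 40th percentile on Lip-O arrays alone. A change of St18 in Lip-C mice could therefore not be read, and neither could its interaction. Neurod1 differed by -0.36 ± 0.26 (interval -0.94 to 0.22) and Nhlh2 by -0.33 ± 0.18 (interval -0.73 to 0.07). For Neurog1 the difference was -0.12 ± 0.21 (interval -0.57 to 0.34) and for Nhlh1 it was 0.14 ± 0.30 (interval -0.53 to 0.81). These intervals leave room for sizeable differences in either direction for Neurog1 and Nhlh1. The interaction also shares arrays with the comparisons that chose the genes.

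**Figure D3:**
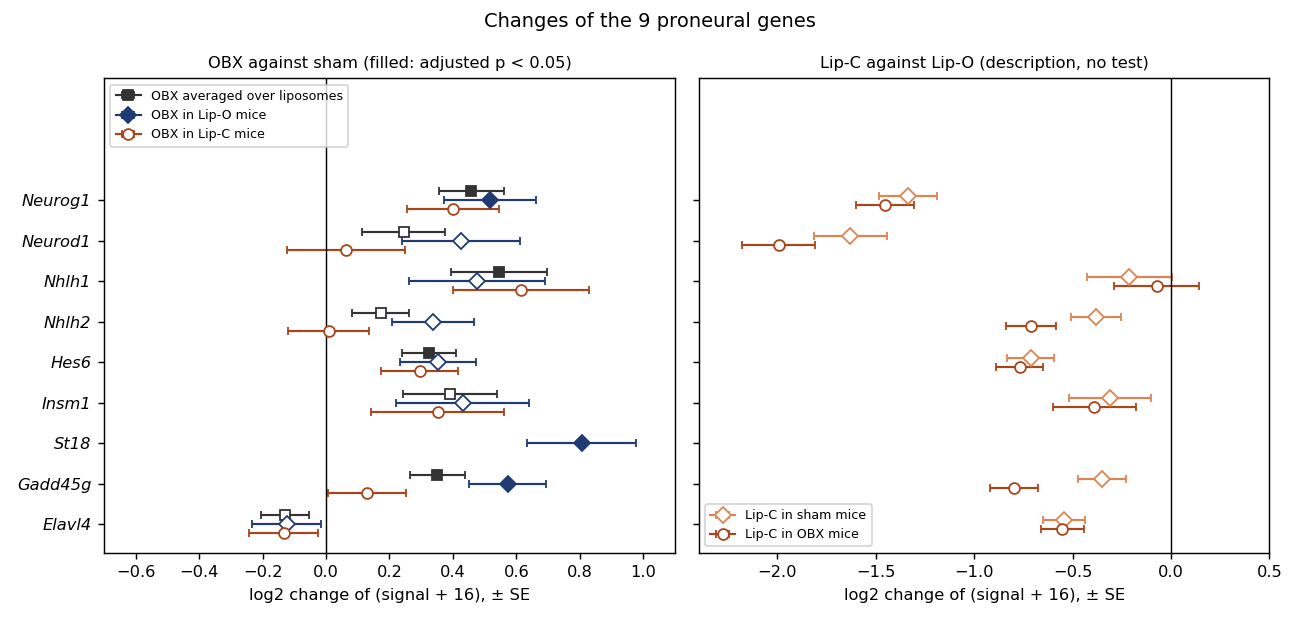
Log2 change of each gene ± the standard error of the model, for OBX against sham (averaged, in Lip-O mice and in Lip-C mice) and for Lip-C against Lip-O (in sham and in OBX mice). For OBX, markers are filled where the adjusted p was under 0.05. For Lip-C all markers are open, whatever the model called, because these values are not tested. St18 is drawn only for OBX in Lip-O mice because its Lip-C signals were under the 40th percentile. The Lip-C values are a description of the choice of genes, and span -1.63 to -0.21 in sham mice and -1.99 to -0.07 in OBX mice.

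Lip-C mice had lower mean signals than Lip-O mice for all 9 genes after either operation, but by very different amounts. Neurod1 and Neurog1 differed most among the genes above the bound. Neurod1 was at 884 ± 43.9 in Lip-O sham and 284 ± 96.7 in Lip-C sham mice, 3.10-fold lower, and at 1194 ± 74.8 and 290 ± 46.2 after OBX, 3.98-fold lower. Neurog1 was 2.53-fold lower in sham and 2.74-fold lower in OBX mice. These folds come from log2(signal + 16). The second Neurog1 probe set, which was dim, differed by -0.20 in sham mice, with overlapping arrays, and by -0.80 in OBX mice, and the mean of both probe sets by -0.77 and -1.13. For the brighter probe set of both genes every Lip-C array lay below every Lip-O array, OBX and sham together. Hes6, Nhlh2 and Elavl4 showed the same separation with their brightest probe sets.

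Hes6 was 1.64-fold lower in sham and 1.71-fold lower in OBX mice, and Elavl4 1.46-fold and 1.47-fold lower. Nhlh2 was 1.30-fold lower in sham and 1.64-fold lower in OBX mice, and Gadd45g 1.28-fold and 1.74-fold lower. The St18 signals of the Lip-C arrays, at most 54.8, were all below the lowest Lip-O signal of 84.8. Nhlh1 and Insm1 stood apart from these 7: in sham mice they were 1.16-fold and 1.24-fold lower, after OBX 1.05-fold and 1.31-fold lower, and their Lip-C and Lip-O arrays overlapped in both. The same held for the second probe set of Insm1 (log2 differences of -0.15 and -0.45), and the second probe set of Neurod1 followed the first (-1.31 and -1.74). All 3 Elavl4 probe sets were lower, by -0.34 to -0.54 in sham and by -0.55 to -0.76 in OBX mice.

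Of the 9 genes, 5 would be called lower by limma in sham mice, where 0.814% of all genes were, and 5 in OBX mice, where 0.220% were. Near the threshold in sham mice stood Elavl4 (-0.54), inside it, and Nhlh2 (-0.38) and Gadd45g (-0.35), outside it. In OBX mice Gadd45g (-0.80) and Hes6 (-0.77) were inside and Nhlh2 (-0.71) and Elavl4 (-0.55) outside. For 7 of the 9 every Lip-C array was below every Lip-O array, in sham mice beside 13.5% and in OBX mice beside 7.81% of all genes. St18 is among the 5 and the 7 after either operation, although it was above the 40th percentile on Lip-O arrays alone. Leaving out 1 array at a time gave 2 to 5 genes in sham mice, with 2 without Lip-O sham replicate 2, and 3 to 6 in OBX mice, with 3 without Lip-O OBX replicate 1. Over all genes the count fell from 286 to 17 without Lip-C sham replicate 3 in sham mice, and in OBX mice from 47 to 7 without Lip-O OBX replicate 1 and rose to 73 without Lip-O OBX replicate 3. These counts restate how the genes were picked.

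The order of the 4 groups differed between genes. Neurog1 and Hes6 ran Lip-O OBX, Lip-O sham, Lip-C OBX, Lip-C sham from high to low, with no overlap between neighbours. Neurod1 had the same order, but its Lip-C groups overlapped. Gadd45g had it too, with Lip-O OBX apart and the other neighbouring groups overlapping. In Nhlh1 and Insm1 the OBX groups were highest whatever the liposome, and all neighbours overlapped. Elavl4 had both Lip-O groups above both Lip-C groups. The highest group mean exceeded the lowest 4.09-fold in Neurog1 and 4.2-fold in Neurod1, but 1.63-fold in Nhlh1 and 1.66-fold in Insm1.

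Markers of other cells moved with the liposome too. The summed signal of 10 macrophage genes was 4887.3 to 6412 in Lip-O sham and 3649.2 to 4280.5 in Lip-C sham arrays, and 7061.4 to 11542 in Lip-O OBX and 6270.2 to 8427.7 in Lip-C OBX arrays. Of those 10 genes 2 fell in sham mice, the growth factor receptor Csf1r and the calcium-binding Aif1, and none passed in OBX mice. The medians over the 10 were -0.26 and -0.28, with 2 positive values in each comparison. Of 8 globose basal cell genes 1 fell in sham mice, the stem cell factor Sox2 (-0.50 ± 0.10, adjusted p = 0.0408), and all 8 had negative values there. In OBX mice none of the 8 passed, and 2 had positive values. Of 6 horizontal basal cell genes 1 fell in sham mice, the keratin Krt14 (-0.90 ± 0.17, adjusted p = 0.0311). The median over the 6 was -0.15, and 2 had positive values. Of 8 sustentacular cell genes 1 fell, Aldh1a7, in sham (-0.64 ± 0.08, adjusted p = 0.0136) and in OBX mice (-0.54 ± 0.08, adjusted p = 0.0243). The medians over the 8 were -0.13 and -0.14, with 3 positive values in each comparison. None of 12 immature and none of 12 mature neuron genes passed in either Lip-C comparison with limma. The part of these markers in the values of the proneural genes was not tested.

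Genes related to the 9 by family or place in the pathway were taken as 6 lists of 72 genes, of which 50 could be tested. OBX averaged over liposomes raised 16 and lowered 12 of the 50, with a median of 0.10. Cntn2, counted among the 16, was above the 40th percentile on OBX arrays alone. Lip-C lowered 1 in sham and 1 in OBX mice, in both the Notch-modifying enzyme gene Mfng, and raised none. With the replicate block 2 were called in sham mice. The median over the 50 genes was -0.05 in sham and -0.10 in OBX mice, where that over all genes was 0.00 and 0.01. The interaction called none of the 50 by limma.

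Among the binding partners and inhibitors of proneural factors, 7 of 7 were measured. After OBX the E protein gene Tcf4 (0.25 ± 0.06, adjusted p = 0.0116) and the inhibitor Id3 (0.39 ± 0.06, adjusted p = 0.00159) rose, while the inhibitor Id4 fell by 0.44 (adjusted p = 0.00663). Id3 had group means of 1761 ± 116 and 2472 ± 122 in Lip-O and of 1801 ± 55.2 and 2218 ± 233 in Lip-C mice, sham before OBX. The inhibitor Id1 had a value of -0.58 ± 0.13 for Lip-C in sham mice (adjusted p = 0.0535). Other proneural and related factors could hardly be read: of 15 genes 10 were under the 40th percentile in all groups, including Neurog2 and Neurod2, and the 2 tested, Olig1 and Olig2, did not pass.

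Of the Hes and Hey repressors 5 of 8 were tested, and 1 rose after OBX. Hey2, a repressor downstream of Notch, went from 140 ± 21.8 to 264 ± 39.0 in Lip-O and from 189 ± 36.5 to 247 ± 7.22 in Lip-C mice (0.61 ± 0.10, adjusted p = 0.0021). Hes1, the repressor that Hes6 counters, had a value of 0.23 ± 0.10 (adjusted p = 0.0879). Of the relatives of Gadd45g and Elavl4, Gadd45a rose (0.45 ± 0.09, adjusted p = 0.00471) and the neuronal RNA-binding gene Elavl3 fell (-0.37 ± 0.10, adjusted p = 0.0208). Elavl1 rose as well, a call that turned to -0.0045 with the mean of its probe sets.

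Among the zinc finger relatives, 6 of 8 were tested, and 2 rose and 2 fell. Rest, which silences neuronal genes outside neurons, rose (0.34 ± 0.08, adjusted p = 0.00904), a call lost when its probe sets were averaged (0.14, adjusted p = 0.0668). Myt1l, which represses non-neuronal genes in neurons, fell (-0.56 ± 0.11, adjusted p = 0.00348). The calls of the Rest cofactor Rcor1 and of Myt1 were lost without any of several single arrays, with adjusted p up to 0.0854 and 0.061. The largest list held other genes of neuronal precursors, with 25 of 29 tested: 9 rose and 8 fell after OBX. The Notch ligand gene Dll1 rose (0.36 ± 0.07, adjusted p = 0.00354), as did the SoxC factors Sox4 (0.46 ± 0.08) and Sox11 (0.47 ± 0.12). The factors Ebf1, Ebf2 (-0.36 ± 0.06) and Ebf3 (-0.35 ± 0.07) fell, with Emx2 (-0.41 ± 0.10) and the neuronal tubulin Tubb3 (-0.51 ± 0.12). Tcf4, Id3, Id4, Hey2, Gadd45a, Elavl3, Rest, Myt1l, Dll1, Sox4, Sox11, Ebf1, Ebf2, Ebf3, Emx2 and Tubb3 kept their calls when each of the 12 arrays was left out in turn.

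Mfng was the 1 related gene called for Lip-C. Its group means were 277 ± 37.9 in Lip-O sham, 398 ± 63.8 in Lip-O OBX, 136 ± 7.96 in Lip-C sham and 153 ± 15.6 in Lip-C OBX mice. It fell by 0.94 in sham mice (adjusted p = 0.0137) and by 1.28 in OBX mice (adjusted p = 0.00396). In sham mice the call was lost without Lip-O sham replicate 2 (adjusted p = 0.067) or 3 (0.0628) and without Lip-C sham replicate 2 (0.0506) or 3 (0.0621). Dll1, the ligand whose receptor Mfng modifies, had values of -0.21 ± 0.10 and -0.23 ± 0.10, neither past the threshold.

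**Figure D4:**
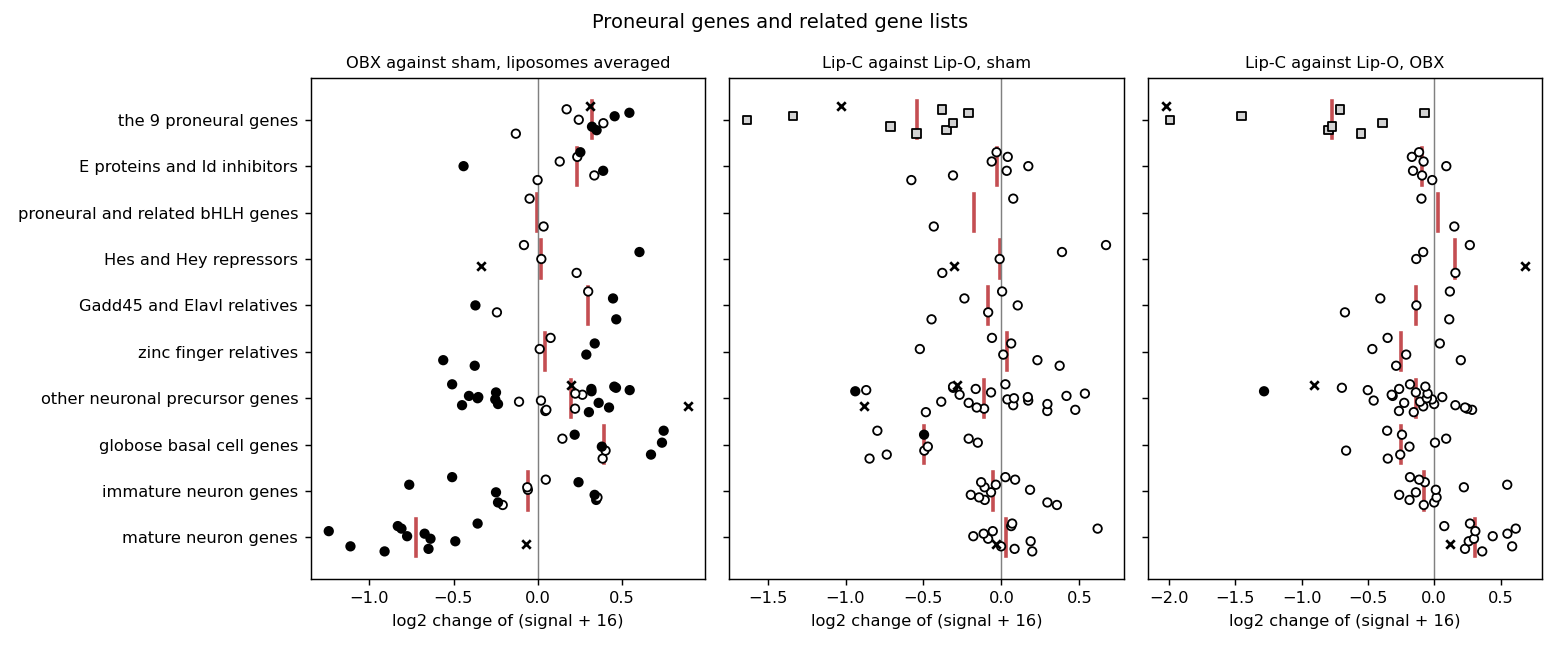
Log2 change of each tested gene in the 9 proneural genes, the 6 related lists and 3 lists of lineage markers, for OBX averaged over liposomes and for Lip-C in sham and OBX mice; filled circles passed an adjusted p of 0.05, open circles did not, grey squares are the proneural genes given as a description, crosses mark genes with a compared group under the 40th percentile and red bars are list medians. In the Lip-C panels 1 filled circle stands in the related lists, Mfng, and after OBX the mature neuron genes lie to the left.

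The genes with values most like those of Neurog1 and Neurod1 were found by the root mean square difference of centred log2 values over the 12 arrays. For Neurog1 they were the bombesin-like peptide gene Grp (0.15), the secretogranin gene Scg2 (0.20), the centriole genes Stil (0.22) and Plk4 (0.34), and Mfng (0.28), where the median over all genes was 0.77. For Neurod1 they were Grp (0.31), Scg2 (0.32), Mfng (0.42), Stil (0.42) and Rln1 (0.46), against a median of 0.96. Rln1 was under the 40th percentile in Lip-C mice. Within the 9 genes, St18 (0.32) and Neurod1 (0.33) were closest to Neurog1 and Nhlh1 was farthest (0.67). The value of St18 rests in part on Lip-C signals under the 40th percentile. The root mean square difference follows the differences between Lip-C and Lip-O mice that chose the genes, and is a description.

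Grp had group means of 264 ± 42.1 in Lip-O sham, 309 ± 48.4 in Lip-O OBX, 77.8 ± 11 in Lip-C sham and 110 ± 4.27 in Lip-C OBX mice. Stil, which takes part in the duplication of centrioles, had 274 ± 31.5, 407 ± 19.4, 114 ± 19.2 and 173 ± 49.2 in the same order. Both had the order of groups seen in Neurog1, with the Lip-C groups lowest.

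**Figure D5:**
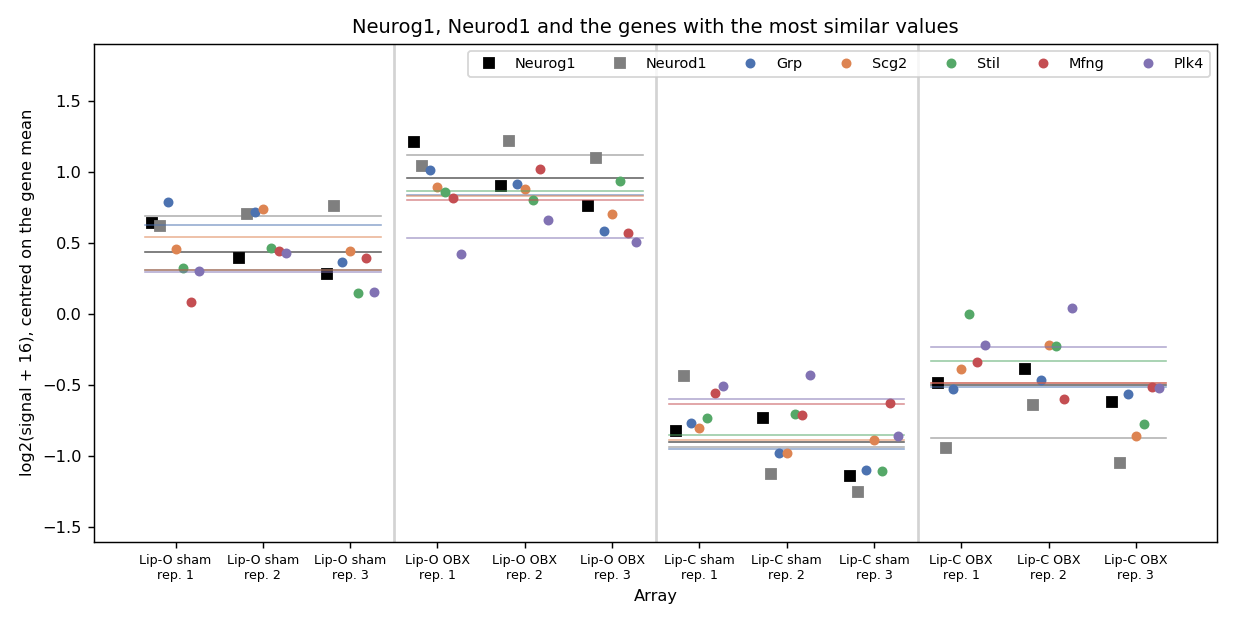
Centred log2(signal + 16) of Neurog1 and Neurod1 (squares) and of Grp, Scg2, Stil, Mfng and Plk4 (circles) on the 12 arrays, with lines at the group means. All 7 genes have both Lip-O group means above both Lip-C group means, and every OBX mean above the sham mean of its liposome group.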

How the data were processed

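The deposited file gives linear signal intensity for each probe set, in 12 columns of 45101 probe sets, 64 of them controls. From the values, arrays had been brought by the authors to 1 mean, 500 after trimming 2%. No source used here names the algorithm that summarised the probes. Per the labels' protocols, total RNA was labelled with biotin as cRNA. No 2 arrays had more than 0.315% of their values in common.

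Controls were dropped, signals were transformed as log2(signal + 16), and the 28986 probe sets that lay above the 40th percentile of an array on 3 or more arrays were kept. In the platform annotation 34945 probe sets had 1 gene, 932 had several and 9160 had none, and 34741 matched the RefSeq gene table (GRCm38.p6, names alone) by identifier. The values carry no genome build, so coordinates are given only for the promoter sequences. None of the 16 probe sets was found through an older alias, and 2 whose symbol is an alias of Nhlh1 but whose identifier is another gene were left out. The brightest probe set on average stood for its gene, which gave 13628 genes.

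Limma 3.58.1 (R 4.3.3) was used to fit the 4 group means together, with 8 residual and 2.56 prior degrees of freedom. Tests were two-sided, with Benjamini-Hochberg adjustment within each of 6 comparisons. Signals are means ± SD of 3 arrays. The smallest p of an exact permutation test of 3 against 3 arrays is 0.1, so comparisons between single groups were tested in the model alone. That bound does not hold for the averaged comparison, for which no permutation test was run. The number of arrays limits the precision: the median standard error of an averaged OBX change was 0.09. For a group whose mean lay under the mean 40th percentile, signals replace the log2 change. The model was run on simulated data with independent noise on each array. Those data lack the correlations of same-numbered arrays given below, so they do not show the rate of false calls here.

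The genes and the lists were chosen with earlier results of these data known, and support nothing that those results already showed. All 9 genes are named, with related genes by role and the 5 genes most like Neurog1 and Neurod1. Alternatives were pseudocounts of 1 and 64, no filter, quantile normalization, averaging a gene's probe sets, no moderation of the variance, the groups compared alone, a replicate block and each array left out.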

Additional observations from a re-analysis of the deposited data

How the results depend on the processing

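Across these settings the 4 calls of OBX averaged over liposomes changed once, for Neurog1 with the mean of its probe sets. In Lip-O mice, the count of proneural genes called after OBX ranged from 2 to 5 without 1 array, and that of related genes, 11, from 3 (without Lip-O sham replicate 3) to 16; the latter was 6 with no filter and 6 with the arrays of the groups compared alone. In Lip-C mice, the count of proneural genes after OBX ranged from 0 to 1 without 1 array, and that of related genes, 19, from 5 (without Lip-C OBX replicate 1) to 21, with 9 from the groups compared alone. For Lip-C in sham mice the count of proneural genes, 5, ranged from 2 to 5 and was 2 with no filter and 2 with the groups compared alone. The count of related genes there, 1, ranged from 0 to 2 and was 2 with a pseudocount of 64. For Lip-C in OBX mice the count of proneural genes, 5, ranged from 3 to 6 and was 2 with the groups compared alone, and that of related genes, 1, ranged from 1 to 2, with 2 at a pseudocount of 64 and 0 with the groups compared alone. The cause of these changes was not tested, beyond the fewer arrays used with the groups compared alone and without 1 array.

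Apart from Elavl1, at 0.47 with its brightest probe set, signs turned only for values of 0.14 or less in size. When the probe sets of a gene were averaged, the OBX change of Elavl1 was -0.0045 and the interaction of Hes6 was 0.032. Without 1 array, the interaction ranged from -0.24 to 0.0092 for Neurog1, from -0.076 to 0.30 for Nhlh1, from -0.16 to 0.047 for Hes6, from -0.25 to 0.10 for Insm1 and from -0.10 to 0.11 for Elavl4. OBX in Lip-C mice ranged from -0.093 to 0.31 for Neurod1 and from -0.078 to 0.11 for Nhlh2.

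Replicate numbers are shared by the groups. Same-numbered arrays correlated at -0.03 to 0.33 in their deviations from the group means, with 11 of 18 pairs over 0.1, and differently numbered ones at -0.33 to 0.18. An array correlated best with its own number in 24 of 36 comparisons with another group. All 3 pairs were over 0.1 between Lip-O sham and Lip-O OBX and between Lip-O sham and Lip-C sham, but not between the other groups, and the model without pairing was kept. With the replicate block, 2 proneural genes were called for OBX in Lip-C mice, Neurog1 (adjusted p = 0.0245) and Nhlh1 (adjusted p = 0.0264). In the replicate block 2 related genes were called for Lip-C in sham mice. The counts of proneural genes in the other comparisons were the same with the block: 4 for OBX averaged, 3 in Lip-O mice, 5 for Lip-C in sham and 5 in OBX mice, and 0 for the interaction. For 3 of 12 arrays the own number was best in all other groups. Dim signals limit St18, which was above the 40th percentile on 6 arrays, and the second probe set of Neurog1, above it on 4.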

Other observations

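The arrays of replicate 2 tended to hold the higher signals of the proneural genes. In its group of 3, replicate 2 had the highest signal for 4 of the 9 genes in Lip-O sham, 6 in Lip-O OBX, 5 in Lip-C sham and 4 in Lip-C OBX mice, and the lowest for 0, 0, 1 and 0. The Mki67 signal of replicate 2 was 1202.1 in Lip-O sham, 1719.6 in Lip-O OBX and 1611.1 in Lip-C OBX mice, the highest of each group, and 703.7 in Lip-C sham mice, where replicate 1 had 794.3. Lip-O OBX replicate 3 had the lowest signal of its group for 7 of the 9 genes. No source used here says what the numbers stand for.

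Of the mature neuron genes, all 12 had positive values for Lip-C in OBX mice, with a median of 0.31, although none passed with limma. Omp was at 8610 ± 2548 in Lip-O OBX and 12330.2 ± 1192 in Lip-C OBX mice (0.55 ± 0.17, adjusted p = 0.209). The 6 related lists had a median of -0.10 in the same comparison.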
